A study of Mus musculus with 144 samples.

Results

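The response of cultured mouse primary hepatocytes to TCDD was examined at 48 h, in the 16 RNA-Seq libraries of that harvest, 4 of the 36 groups of 4 libraries in the series. The 16 libraries were chosen by their labels alone, 8 treated with 10 nM TCDD (libraries P172_57 to P172_60 and P172_129 to P172_132) and 8 given DMSO vehicle (P172_21 to P172_24 and P172_93 to P172_96), and those below P172_100 are called by their last digits, such as library 21. Each side held 4 libraries labelled WT, strain C57BL/6NCrl, and 4 labelled PkmΔDRE, a line in which a dioxin response element (DRE) in an intron of Pkm was deleted by genome editing in the whole body, followed by backcrossing. The cells were from male mice, with an age of 28 days in the labels, and were kept on type I collagen in William's medium with dexamethasone, which all 4 groups received. Neither the labels nor the methods say which libraries came from separate animals, so the p-values below measure only the spread between these libraries, which may be partly technical.

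TCDD is the prototypical ligand of the aryl hydrocarbon receptor (AHR), a cytosolic receptor that moves to the nucleus when bound, pairs with ARNT and binds DREs, whose core is GCGTG. Its best known targets in liver are phase I enzymes of the CYP1 family and phase II enzymes that conjugate foreign compounds. Among its targets are also its own repressors, which limit how long the receptor signals.

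Between 15044145 and 26582554 read pairs fell on genes per library, and values are given as CPM, counts scaled to a common library size, set with TMM over the 16 libraries. The hepatocyte markers Alb, Ttr, Apoa1 and Hnf4a were at 357.8 CPM or above in every library. The lowest values of Apob, Ahsg, Serpina1c and Cps1 were 97.37, 146.7, 36 and 47.42 CPM. Summed levels of these hepatocyte markers, with Alb the largest part, overlapped between vehicle and TCDD. The lymphocyte genes Cd3g, Cd8a and Ms4a1 were at 0 throughout. Library 21, labelled WT vehicle, stood apart from the other 7 vehicle libraries before any test. Its Cyp1a1 level was 3557 CPM against 0.458 to 5.51 in the others, and its levels of several phase II genes were those of TCDD libraries, while Cyp1b1, Ahrr and Tiparp, which respond to the same receptor, were at 0.228, 0.285 and 10.8 CPM. Groups were kept as labelled, so library 21 counts as vehicle. The counts of genes called over both labels are given with it and without it, and so are some single genes. Other values at 48 h are from the 16 libraries unless another fit is named. What library 21 holds cannot be told from its label.

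The 6 genes that the study used as markers of AHR activation, here called the AHR battery, are described first. The 250 bases before the start of the 4 battery genes with a DRE core in that window are shown, because the core is the letter string the receptor is known to bind. They are from RefSeq, assembly GRCm38.p6, read 5′ to 3′ along the gene, with the core in capitals (GCGTG, or CACGC where it lies on the other strand). The windows are chr9:57697363-57697612 (plus strand) for Cyp1a1, chr17:79715062-79715311 (minus strand) for Cyp1b1, chr13:74292332-74292581 (minus strand) for Ahrr and chr3:65528197-65528446 (plus strand) for Tiparp.
Cyp1a1: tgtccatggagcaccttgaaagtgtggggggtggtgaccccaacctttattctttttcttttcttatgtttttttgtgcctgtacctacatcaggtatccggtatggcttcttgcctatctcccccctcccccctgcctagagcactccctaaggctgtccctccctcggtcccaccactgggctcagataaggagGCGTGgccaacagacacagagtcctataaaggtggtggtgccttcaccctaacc
Cyp1b1: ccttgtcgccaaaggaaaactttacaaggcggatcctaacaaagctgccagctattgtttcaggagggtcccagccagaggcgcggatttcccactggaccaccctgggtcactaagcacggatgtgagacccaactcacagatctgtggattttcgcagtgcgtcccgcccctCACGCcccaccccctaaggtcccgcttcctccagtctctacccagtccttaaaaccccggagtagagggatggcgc
Ahrr: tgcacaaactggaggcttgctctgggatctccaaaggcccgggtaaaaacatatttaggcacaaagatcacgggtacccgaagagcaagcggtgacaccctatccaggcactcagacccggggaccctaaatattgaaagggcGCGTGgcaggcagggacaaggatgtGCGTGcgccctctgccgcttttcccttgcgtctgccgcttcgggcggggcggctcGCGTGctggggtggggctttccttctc
Tiparp: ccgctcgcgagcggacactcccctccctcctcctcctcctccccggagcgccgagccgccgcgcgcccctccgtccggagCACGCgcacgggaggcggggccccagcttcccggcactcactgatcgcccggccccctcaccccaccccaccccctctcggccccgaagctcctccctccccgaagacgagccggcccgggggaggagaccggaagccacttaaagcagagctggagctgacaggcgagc
Ahrr held 3 cores, and the other 3 genes held 1 each. In windows of 250 bases before to 50 bases after the start, a core on either strand was in 4 of 6 battery genes, the exceptions being Nqo1 and Cyp1a2, in 32.39% of all 32851 promoters in the table, in 48.88% of those of genes tested, and in 36.67% of those of genes called higher with 16 libraries. A match is a string of letters and not a measured binding site, and the windows leave out distal enhancers.

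Of the 6 battery genes 5 rose with all 16 libraries, and all 6 did without library 21, where 0.529% and 1.01% of all genes tested were called higher. Cyp1b1 and Cyp1a1 are monooxygenases that oxidize aromatic hydrocarbons. Cyp1b1 was at 242, 256, 275 and 294 CPM in WT and 270, 230, 319 and 209 CPM in PkmΔDRE hepatocytes with TCDD, against at most 0.228 CPM in any vehicle library, with no overlap. Over the 8 vehicle libraries 8 pairs in all fell on Cyp1b1, against 38222 over the 8 TCDD libraries, a pooled ratio of 4791. Its log2 fold change in the 16 libraries was 12.11 ± 0.37 (SE, adjusted p = 8.89e-13 in edgeR's quasi-likelihood test, Benjamini-Hochberg adjusted like every adjusted p below), and 12.80 ± 0.34 without library 21.

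Cyp1a1 was at 5964, 5590, 3264 and 4440 CPM in WT and 5910, 5186, 5785 and 4076 CPM in PkmΔDRE hepatocytes with TCDD. The vehicle libraries other than library 21 were at 5.51 CPM or below, so that TCDD and vehicle overlapped through that 1 library alone. Accordingly the log2 fold change was 6.56 ± 2.37 (adjusted p = 0.351) with 16 libraries and 11.09 ± 0.50 (adjusted p = 1.34e-09) without library 21. Cyp1a2, the related liver enzyme that oxidizes caffeine, was at 7.06 to 21.4 CPM in the other 7 vehicle libraries, at 653 CPM in library 21 and at 525 to 2812 CPM (median 1294) with TCDD. Its log2 fold change was 4.49 ± 0.88 (adjusted p = 0.0238), and 6.27 ± 0.44 (adjusted p = 6.33e-07) without library 21. The Cyp1a2 call was also lost in 3 of 16 fits, each with 1 library removed.

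Both genes that restrain the receptor rose. Ahrr, the AHR repressor, was at 7.34 to 13.9 CPM in WT and 5.08 to 11.2 CPM in PkmΔDRE hepatocytes with TCDD, and at 0 in 7 of 8 vehicle libraries. The 5 pairs on Ahrr in vehicle were all in library 21, so without it the pooled level with TCDD was at least 396-fold higher than the limit set by 3 counts over the 7 libraries. Tiparp, an ADP-ribosyltransferase that represses AHR, was at 1.03 to 15.1 CPM (median 6.59) with vehicle and 18.8 to 157 CPM (median 48.1) with TCDD, with no overlap. The log2 fold change of Tiparp was 2.88 ± 0.45 (adjusted p = 0.00445), and 2.91 ± 0.49 without library 21. Nqo1, a quinone reductase, was at 12.3 to 25.04 CPM in 7 vehicle libraries, 115.7 CPM in library 21 and 78.8 to 292 CPM with TCDD. Nqo1 rose by 2.24 ± 0.41 on the log2 scale (adjusted p = 0.0119), and by 2.84 ± 0.27 (adjusted p = 1.72e-05) without library 21. The receptor itself did not move past the test. None of Ahr, Arnt and 10 other partners and chaperones was called by edgeR in either fit (2 at an unadjusted p under 0.05 with 16 libraries), with a median log2 fold change of 0.0029 with 16 libraries.

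**Figure D1:**
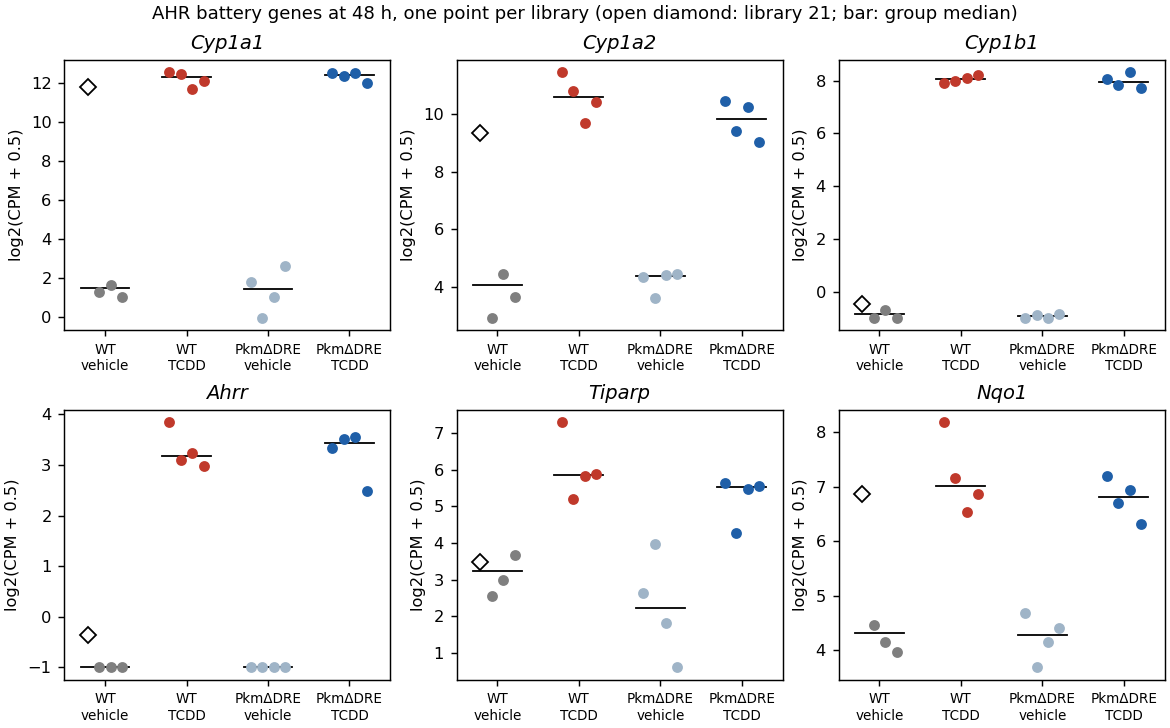
Levels of the 6 AHR battery genes in each of the 16 libraries, as log2 of CPM plus 0.5, by genotype label and treatment, with a bar at each group's median. Library 21 (open diamond) lies with the TCDD libraries for Cyp1a1, Cyp1a2 and Nqo1 and with the vehicle libraries for Cyp1b1, Ahrr and Tiparp.

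In the whole transcriptome, 74 genes were called higher with TCDD (0.529% of 13981 tested) and 17 lower (0.122%) (adjusted p under 0.05, at least 1.5-fold change). Without library 21, 145 were higher (1.01% of 14394) and 56 lower (0.389%). All 91 genes called with 16 libraries were called without library 21, in the same direction. The median log2 fold change over all genes was -0.03 in both. The levels of the 8 vehicle and 8 TCDD libraries did not overlap for 32 higher (0.229%) and 3 lower genes (0.0215%), the latter being Clmp, Fgd3 and Mrps18c, named after their values were seen. Without library 21 these counts were 86 (0.615%) and 20 (0.143%).

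The position of library 21 was not the same for every gene. On a log2 scale running from the mean of the other 7 vehicle libraries (0%) to the mean of the TCDD libraries (100%), its median position was 86.75% over the genes called higher without it (145, less 1 not tested with 16 libraries) and 99.45% over those called lower (56, less 1). Since these genes were called without library 21, it took no part in choosing them. It was within the TCDD range for 95 of the former and 48 of the latter, and within the range of the other vehicle libraries for 32 and 16. For each of the other vehicle libraries, which did enter the choice, the median position lay between -16.44% and 21.08%.

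**Figure D2:**
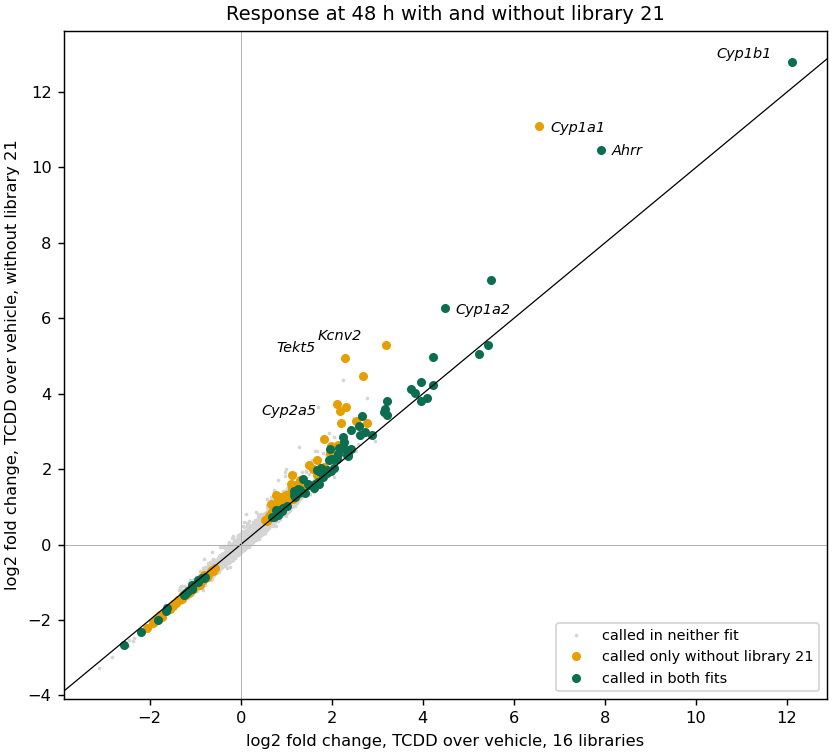
Log2 fold change of TCDD over vehicle with 16 libraries (x axis) and without library 21 (y axis), 1 point per gene tested in both fits, with the line of equal values. Genes called only without library 21 lie mostly above the line on the higher side, with Cyp1a1 the farthest of those named (6.56 and 11.09).

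Glucuronidation, in which UDP-glucuronosyltransferases attach a sugar acid to drugs, bilirubin and hormones, was the most affected conjugation step. Of 16 tested genes in the list of these transferases and UDP-glucose dehydrogenase, 5 rose and none fell, all of them in the Ugt1a cluster (background 0.529% higher). Ugt1a7c was at 1.08 to 22.4 CPM (median 2.67) with vehicle, the highest being library 21, and at 20.1 to 54.3 CPM (median 33.6) with TCDD. Only library 21 overlapped the TCDD libraries. Ugt1a7c had a log2 fold change of 3.22 ± 0.43 (adjusted p = 0.00124), and 3.82 ± 0.23 (adjusted p = 6.83e-08) without library 21. The log2 fold changes of Ugt1a9, Ugt1a6a, Ugt1a6b and Ugt1a5 were 2.66, 2.60, 2.42 and 2.12. The calls of Ugt1a6a and Ugt1a9 were lost in 11 and 9 of the 16 fits with 1 library removed. Without library 21, Ugdh, which makes the UDP-glucuronate these enzymes use, was called as well, at 98.6 to 450 CPM in 7 vehicle libraries, 926 CPM in library 21 and 338 to 980 CPM with TCDD (log2 fold change 1.04 ± 0.23, adjusted p = 0.0305). The Ugt1a genes share their last exons, and how counting divided pairs among them was not examined, so the values of single members are uncertain.

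Several other enzymes and carriers of foreign or endogenous compounds rose. Adh7, an alcohol dehydrogenase that also oxidizes retinol, went from 0.366 to 16.6 CPM (median 1.70) with vehicle to 18.4 to 270 CPM (median 34.1) with TCDD, with no overlap, although the top vehicle and the top TCDD value were those of libraries 21 and 57. Its log2 fold change was 4.21 ± 0.62 (adjusted p = 0.00301), and 4.97 ± 0.60 without library 21. Xdh, which makes uric acid from xanthine, was at 113.2 to 482 CPM (median 172.1) with vehicle and 456 to 874 CPM (median 662) with TCDD, a log2 fold change of 1.72 ± 0.23 (adjusted p = 0.00124). Of 16 tested genes in a list of other genes known to respond to TCDD in liver, 6 rose in both fits and none fell (background 0.529% and 1.01% higher). Besides Xdh they included Dclk3, a kinase, Tnfaip2, Selenbp1, a methanethiol oxidase, and Slc46a3, a lysosomal carrier, with log2 fold changes of 3.22, 2.05, 1.99 and 1.95. The list's median was 1.54, beside -0.03 for all genes, and it was compiled from earlier knowledge of TCDD.

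The calls of Selenbp1 and Slc46a3 were each lost in 13 of the 16 fits with 1 library removed. Selenbp1 was at 177 to 601 CPM in 6 vehicle libraries and at 1415 and 1704 CPM in libraries 23 and 21, against 1643 to 3036 CPM with TCDD.

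Genes with the largest increases outside these lists were of mixed function. Cyfip2, a component of the complex that drives actin branching, was at 0.279 to 1.37 CPM with vehicle and 2.26 to 15.9 CPM with TCDD, with no overlap, and rose by 3.97 ± 0.42 on the log2 scale (adjusted p = 0.000111). Sprr1b, a cornified envelope protein of keratinocytes, was at 0 to 0.614 CPM with vehicle and 0.116 to 7.40 CPM with TCDD, with overlap. Its log2 fold change was 3.95 ± 0.68 (adjusted p = 0.00903). Reln, the secreted glycoprotein reelin, was at 1.07 to 8.48 CPM with vehicle and 8.22 to 101.6 CPM with TCDD, the top values again being those of libraries 21 and 57 (log2 fold change 3.16 ± 0.53, adjusted p = 0.0072). Areg, an EGF receptor ligand, was at 0.358 to 5.64 CPM (median 1.44) with vehicle and 8.39 to 43.8 CPM (median 14.3) with TCDD, with no overlap, and had a log2 fold change of 2.73 ± 0.54 (adjusted p = 0.0241). Its call was lost in 2 of the 16 fits with 1 library removed. Cap2, an actin regulator, rose by 2.63 ± 0.46 (adjusted p = 0.0104), from 0 to 1.71 CPM with vehicle to 1.85 to 5.62 CPM.

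In lipid and vitamin A metabolism few genes of each list were called. Scd1, which desaturates stearate, was at 266 to 719 CPM (median 437) with vehicle and 552 to 1315 CPM (median 1005) with TCDD (log2 fold change 1.00 ± 0.20, adjusted p = 0.0268). It was the 1 called gene of 24 in the lipogenesis list (background 0.529% higher), whose median was 0.16. Of those 24 genes 6 had an unadjusted p under 0.05, none of them lower, where 1193 of all 13981 genes did. The call of Scd1 was lost in 7 of the 16 fits without 1 library. Lipc, hepatic lipase, rose from 8.42 to 20.3 CPM to 25.8 to 65.7 CPM without overlap (1.501 ± 0.24, adjusted p = 0.00479). Acaa1b, a peroxisomal thiolase, rose by 1.38 ± 0.30 (adjusted p = 0.0428), and its call was lost in 14 of the 16 fits without 1 library. Rdh10, which oxidizes retinol to retinal, rose by 1.66 ± 0.28 (adjusted p = 0.00807), from 6.41 to 34.5 CPM to 18.3 to 69.2 CPM. Without library 21, Bco1, which splits beta-carotene, was called too (0.84 ± 0.15, adjusted p = 0.00735).

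NRF2 is the transcription factor that answers oxidative and electrophilic stress, and glutathione S-transferases couple electrophiles to glutathione. With 16 libraries the 29 tested genes of the NRF2 and antioxidant list all had a positive log2 fold change, with a median of 0.40, while 6390 of all 13981 genes did. Of the 29, 1 was called (background 0.529% higher). It was Pmm1, a phosphomannomutase, at 8.28 to 29.1 CPM with vehicle and 47.8 to 77.6 CPM with TCDD (1.77 ± 0.24, adjusted p = 0.00124), with no overlap. Without library 21 the median was 0.50, and 4 more were called (background 1.01% higher). These were Cbr3 and Cbr1, carbonyl reductases, Abcc4, an export pump, and Srxn1, which repairs oxidized peroxiredoxins. The study, working from these same data, names Pmm1, Cbr3 and the transferases Gsta2, Gsta4 and Gstm2 as antioxidant genes whose induction was late or weaker in PkmΔDRE hepatocytes. The calls of these genes, here and below, are therefore not independent of that account. At 48 h Pmm1 was called within PkmΔDRE, and not within WT with or without library 21. Cbr3, Gsta2, Gsta4 and Gstm2 were called within neither label. None of these genes passed the test of a difference between the labels. Srxn1 was at 356 to 1159 CPM in the other vehicle libraries, 5100 CPM in library 21 and 752 to 5403 CPM with TCDD (1.32 ± 0.31, adjusted p = 0.0456, and 0.77 ± 0.41, adjusted p = 0.677, with 16 libraries). Cbr3 was at 7.82 to 45.6 CPM in the other vehicle libraries, 218 CPM in library 21 and 49.4 to 295 CPM with TCDD, which did not overlap the other vehicle libraries.

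None of 21 tested glutathione S-transferase genes was called by edgeR with 16 libraries (median 0.21, 5 at an unadjusted p under 0.05), where DESeq2 called Gsta4 and Gstm2, and 5 were called higher without library 21 (median 0.36, background 1.01%). These were Gsta2, Gsta4, Gstp2, Gstm2 and Gsta1, with log2 fold changes of 1.84, 1.67, 1.204, 1.16 and 0.87. Gsta2 was at 19.9 to 124.2 CPM in the other 7 vehicle libraries, 657 CPM in library 21 and 98.5 to 642 CPM with TCDD, so that library 21 was above every TCDD library. Gsta4, which clears lipid peroxidation aldehydes, was at 39.9 to 171.8 CPM in the other vehicle libraries, 414 CPM in library 21 and 172.5 to 543 CPM with TCDD. Members of these families resemble each other closely, and pairs that fit several genes were not counted, so single members are uncertain.

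Of 32 tested CYP2 and CYP3 genes none was called by edgeR with 16 libraries (6 at an unadjusted p under 0.05), where DESeq2 called Por higher and Cyp3a59 lower, the latter named after its values were seen. Without library 21 edgeR called 3 higher (background 1.01%). Cyp2a5, a coumarin hydroxylase, was at 19.7 to 186 CPM in the other 7 vehicle libraries, 1775 CPM in library 21 and 168 to 3402 CPM with TCDD (3.23 ± 0.52, adjusted p = 0.00354). The top values were again those of libraries 21 and 57. Por, the reductase that feeds electrons to all microsomal P450s, was at 236 to 636 CPM in the other vehicle libraries, 1108 CPM in library 21 and 767 to 1522 CPM with TCDD (1.33 ± 0.23, adjusted p = 0.005). Cyp2a12 was the third (1.26 ± 0.29, adjusted p = 0.0393). Adh1 and Arg1, named after their values were seen, were also called only without library 21, with log2 fold changes of 3.26 and 2.81.

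Fewer genes were lower than higher in both fits. Fgd3, an exchange factor for Cdc42, was at 320 to 548 CPM (median 347) with vehicle and 146 to 300 CPM (median 186) with TCDD, without overlap (log2 fold change -1.07 ± 0.13, adjusted p = 0.00043), and library 21, at 320 CPM, lay with vehicle. Igf1, the growth hormone-driven growth factor that liver secretes, was at 40.02, 109.3, 97.8 and 90.7 CPM in WT and 139.15, 177, 120 and 152 CPM in PkmΔDRE hepatocytes with vehicle. With TCDD it was at 24.8 to 57.9 and 54.5 to 88.7 CPM. Within each label only library 21, the lowest WT vehicle value, overlapped the TCDD libraries. Igf1 had a log2 fold change of -1.08 ± 0.20 (adjusted p = 0.0119), and -1.19 ± 0.16 (adjusted p = 0.00067) without library 21. In both fits it was the 1 called gene of 16 in the growth hormone and IGF list (background 0.122% and 0.389% lower).

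Nuak2, a stress-responsive kinase, and Amotl2, a motin that binds YAP, were both lower. Nuak2 was at 22.6 to 54.1 CPM in 7 vehicle libraries, 4.50 CPM in library 21 and 2.09 to 12.9 CPM with TCDD (-1.83 ± 0.36, adjusted p = 0.023), and its call was lost in 7 of the 16 fits without 1 library. Amotl2 was at 112.8 to 274 CPM with vehicle and 80.4 to 176 CPM with TCDD (-0.80 ± 0.15, adjusted p = 0.0119). Lmcd1, a transcriptional cofactor, showed the largest decrease among the named genes of the fit with 16 libraries, at 1.59 to 22.1 CPM with vehicle and 0.406 to 2.67 CPM with TCDD (-2.19 ± 0.45, adjusted p = 0.0326). Its call was lost in 11 of the 16 fits without 1 library. Grk5, a kinase of G protein-coupled receptors, Lhx6, a homeobox factor, and Ablim3, an actin-binding protein, had log2 fold changes of -1.22, -1.64 and -1.25, and their calls were kept in all 16 fits without 1 library.

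Fgb, the fibrinogen beta chain, was the 1 called gene of 32 in the list of secreted plasma proteins (background 0.122% lower, -0.79 ± 0.17, adjusted p = 0.0394). It was at 510 to 1457 CPM with vehicle and 311 to 846 CPM with TCDD, and its call was lost in 12 of the 16 fits without 1 library. Acmsd, an enzyme that steers tryptophan away from NAD synthesis, was the 1 called of 17 tryptophan and NAD genes (background 0.122% lower, -0.95 ± 0.19, adjusted p = 0.023). Its call was lost in 4 of the 16 fits without 1 library. DESeq2 called 4 lower plasma protein genes and 2 lower tryptophan and NAD genes.

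Genes of the cell cycle and DNA replication lay lower as a list, with few single calls. Of 32 tested, 31 had a negative log2 fold change with 16 libraries (median -0.71) and 32 without library 21 (median -0.85), beside 7591 of 13981 over all genes. With 16 libraries edgeR called none (19 at an unadjusted p under 0.05) and DESeq2 called Ccnd1, and without library 21 edgeR called 2 lower (background 0.389%). Ccnd1, cyclin D1, was at 65.7 to 179 CPM in the other 7 vehicle libraries, 22.5 CPM in library 21 and 5.86 to 55.1 CPM with TCDD (-1.44 ± 0.33, adjusted p = 0.0398). Tk1, thymidine kinase, was at 26.1 to 66.5 CPM in the other vehicle libraries, 13.2 CPM in library 21 and 11.2 to 36.9 CPM with TCDD (-0.89 ± 0.21, adjusted p = 0.0465). The mean log2 level of the list was 3.10 in library 57 and 4.23 in library 21, the lowest and the second lowest of all 16. In the label PkmΔDRE the vehicle libraries were at 5.43 to 5.86 and the TCDD libraries at 4.94 to 5.14, without overlap, and in WT they were at 4.23 to 5.64 and 3.10 to 5.10, with overlap. In cultures of mixed cells, fewer cycling cells and less of these RNAs per cell cannot be told apart.

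**Figure D3:**
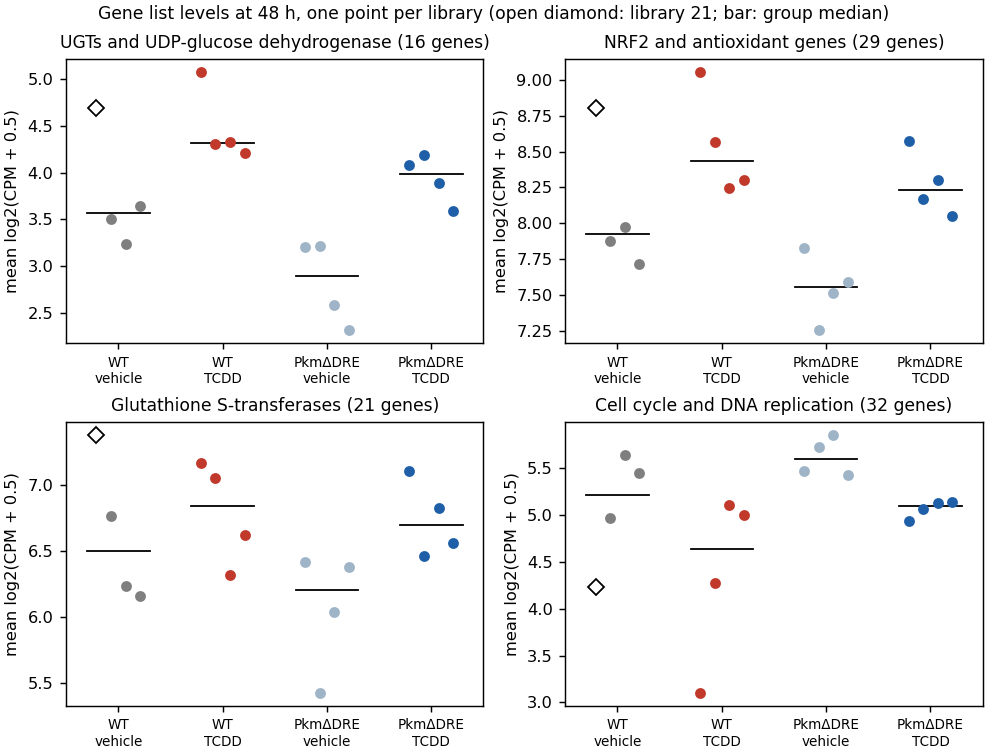
Mean log2(CPM + 0.5) over the tested genes of 4 lists in each library, by genotype label and treatment, with a bar at each group's median. In the 3 detoxification lists library 21 (open diamond) is the highest vehicle library, and in the cell cycle list it is the lowest, at 4.23 against 4.97 to 5.64 in the other WT vehicle libraries.

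Library 57, a WT library with TCDD, was the outermost of the 8 TCDD libraries for 69 of the 145 genes called higher without library 21 and for 43 of the 56 called lower. Library 57 entered the fit that chose these genes. Over all 13981 tested genes, the libraries nearest to library 21 by mean absolute log2 difference were libraries 60 (0.406) and 57 (0.411), both WT with TCDD, followed by library 22 (0.450), WT with vehicle.

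Central carbon metabolism, the subject of the study, showed no called gene at 48 h in edgeR's fits with 16 libraries and without library 21, although Pkm was called without library 23. None was called among 22 glycolysis genes (median log2 fold change -0.03), 8 of the pentose phosphate pathway (0.19), 21 of the TCA cycle (0.04), 13 of gluconeogenesis (-0.04) and 18 of serine and one-carbon metabolism (-0.07), in either fit, and DESeq2 and the posterior probability criterion called none of them with 16 libraries. Of these 82 genes 11 had an unadjusted p under 0.05. None of these tools and fits called any of 24 genes of cholesterol synthesis, 18 of bile acid synthesis and transport, 19 of the circadian clock, 25 interferon-stimulated genes or 18 p53 targets. Over all 13981 genes, 1193 had an unadjusted p under 0.05 in this fit.

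Pkm encodes both pyruvate kinase isoforms, PKM1 and PKM2, which counts per gene do not separate. With vehicle Pkm was at 261, 161, 1281 and 277 CPM in WT and 626, 258, 587 and 478 CPM in PkmΔDRE hepatocytes. With TCDD it was at 359, 326, 828 and 420 CPM in WT and 1162, 828, 1082 and 886 CPM in PkmΔDRE hepatocytes. All 4 TCDD libraries labelled PkmΔDRE were thus above all 4 vehicle libraries of that label, and in WT the treatments overlapped, with library 23 highest of all. The log2 fold change was -0.04 in WT, -0.25 in WT without library 21 and 0.99 ± 0.53 in PkmΔDRE, and none passed the test (adjusted p = 1.00, 1.00 and 0.982). Over both labels it was 0.48 ± 0.39 (adjusted p = 0.872). These values turn on library 23, since the other 3 WT vehicle libraries, at 161 to 277 CPM, were below all 4 WT TCDD libraries. Without library 23 the log2 fold change over both labels was 1.02 and was called (adjusted p = 0.0476), while leaving out any other library gave 0.34 to 0.59 and no call. The difference between the labels was 1.02 ± 0.74 (adjusted p = 1.00) with 16 libraries and -0.08 without library 23 (adjusted p = 1.00). The values without library 23 still included library 59, the highest WT library with TCDD, at 828 CPM. They thus left out a high WT value on the vehicle side only. Without library 59 alone the log2 fold change over both labels was 0.35, and leaving out both libraries was not tested. The Pkm counts do not check the deletion, which lies in an intron and outside the counted exons.

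The responses of the labels were then compared with each other, the question for which the deletion line was made. Ahrr, Cyfip2, Cyp1b1 and Il1r1, a receptor of interleukin 1, were called in WT with library 21 included (0.0286% of 13981), where edgeR called none lower and 469 genes had an unadjusted p under 0.05. Without library 21, 24 genes were higher (0.167%) and 1, Igf1, was lower (0.00695%). In PkmΔDRE hepatocytes 16 genes were higher (0.114%) and 5 lower (0.0358%). WT without library 21 and PkmΔDRE shared 10 called genes, 40% of the first and 47.62% of the second list, all in the same direction. The PkmΔDRE list came from the fit with library 21 included, and the WT list from the fit without it. These shares therefore do not measure how far the labels differ. Fitted on its own libraries alone, PkmΔDRE gave 52 called genes of 12876 tested, 43 higher and 9 lower. All 91 genes called over both labels had the same sign in each, which calling them over both favours.

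The battery genes had similar shifts in the labels once library 21 was left out. Cyp1a1 had a log2 fold change of 11.25 in WT and 10.95 in PkmΔDRE, Cyp1a2 6.99 and 5.68, Cyp1b1 12.68 and 12.91, Nqo1 3.18 and 2.55, and Tiparp 3.21 and 2.65. The differences, PkmΔDRE minus WT, were -0.30 ± 0.70 for Cyp1a1, -1.31 ± 0.63 for Cyp1a2, 0.23 ± 1.00 for Cyp1b1, -0.62 ± 0.49 for Nqo1 and -0.55 ± 0.93 for Tiparp, none of which passed the test (adjusted p = 1.00 for each). These intervals leave room for differences of more than 1.5-fold. With library 21 the difference of Cyp1a1 was 8.50 ± 2.52 (adjusted p = 1.00). In the fit with 16 libraries the spread that library 21 adds also enters the PkmΔDRE estimates, where Cyp1a1 had an adjusted p of 0.0925, and fitted on the 8 PkmΔDRE libraries alone its adjusted p was 0.00037.

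Over all genes 1 of 13981 responses differed between the labels (0.00715%), and 175 had an unadjusted p under 0.05. It was Mir6236, annotated as a miRNA gene, whose mature sequence in RefSeq (GRCm38.p6, chr9:110281353-110281371, plus strand) is shown with the seed, bases 2 to 8, in capitals, because it is the gene on which this comparison turns.
mmu-miR-6236: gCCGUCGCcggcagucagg
The counts are read pairs from RNA-Seq libraries on the annotated gene, not a measure of the mature miRNA. Mir6236 was at 39.4, 62.5, 29.4 and 34.7 CPM in WT vehicle, 54.8, 62.4, 53.9 and 55.2 CPM in WT TCDD, 73.1, 52.98, 48.6 and 60.8 CPM in PkmΔDRE vehicle and 11.8, 9.10, 10.3 and 7.77 CPM in PkmΔDRE TCDD libraries. The last 4 were the lowest of all 16. The difference of log2 fold changes, PkmΔDRE minus WT, was -3.08 ± 0.33 (adjusted p = 0.000731), and -3.06 ± 0.35 (adjusted p = 0.00423) without library 21. Those same 4 libraries had the lowest shares of unmapped pairs, 2.88% to 3.74% against 3.97% to 7.04% in the other 12, and with that share as a covariate the difference was -2.61 (adjusted p = 0.179). The part of the unmapped share in the result was not tested. Lars2, a mitochondrial leucyl-tRNA synthetase, and Gm15564, both named after their values were seen, were also called lower with TCDD within PkmΔDRE (log2 fold changes -1.57 and -2.88), besides Mir6236, Fgd3 and 1 gene without a symbol. Their differences between labels were -2.04 (adjusted p = 0.207) and -2.70 (adjusted p = 0.148).

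**Figure D4:**
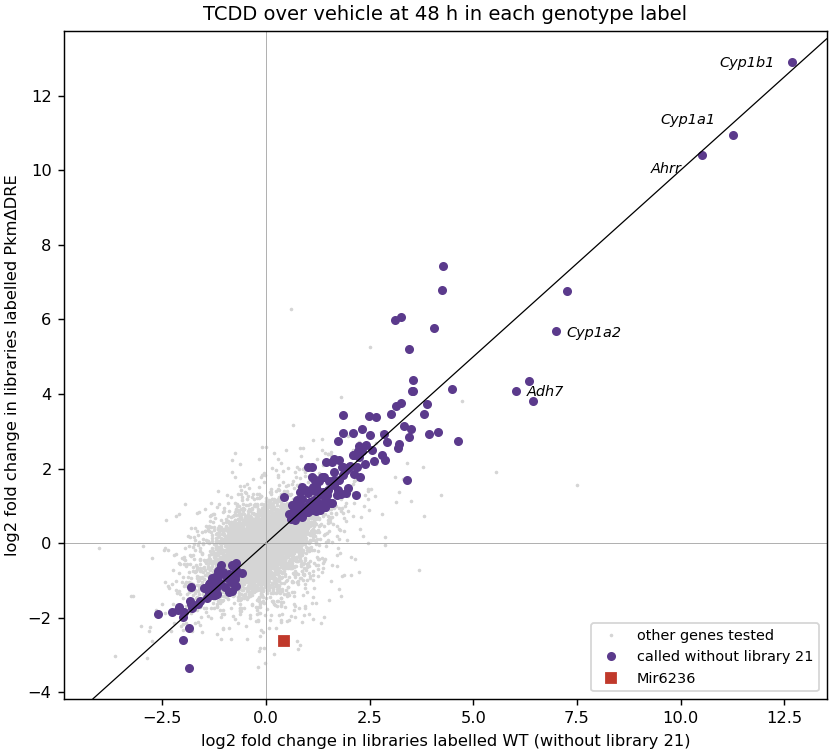
Log2 fold change of TCDD over vehicle in the libraries labelled WT without library 21 (x axis) and in those labelled PkmΔDRE (y axis), 1 point per gene, with the line of equal values. Genes called over both labels without library 21 (filled circles) lie along the line, which calling them over both labels favours. Mir6236, at 0.43 and -2.63, lies below the line.

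The 48 h response was also set beside those at 24 and 72 h, which have TCDD and vehicle libraries of their own. At 24 h 27 genes were higher (0.198% of 13668) and 1 lower (0.00732%), and at 72 h 0.73% of 14381 genes were higher and 26 (0.181%) lower. Of the 91 genes called at 48 h with 16 libraries, 22 were also called at 24 h, which is 24.18% of the 48 h and 78.57% of the 24 h list. At 72 h 53 were also called, 58.24% of the 48 h list and 40.77% of the 130 genes of the 72 h list in the 48 h table. All shared genes had the same direction. Library 64, labelled WT with TCDD at 72 h, was the lowest TCDD library of that harvest for all 6 battery genes. Without it 1.29% of 14733 genes were higher and 0.801% lower at 72 h, and 67 were shared, 73.63% of the 48 h list and 22.56% of the 297 genes of the 72 h list in the 48 h table. Of the 91, 86 were tested at 24 h and 85 of them had the 48 h sign, and at 72 h 91 of 91 did, with and without library 64.

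No difference in response passed the test between 48 and 24 h (0 of 14840 genes, 147 at an unadjusted p under 0.05) or between 48 and 72 h (0 of 15153, 120 unadjusted). The DESeq2 Wald test called 3 genes in the first (Gm38368, Gm7962 and Gm8860) and 2 in the second (Egfem1 and Gm45069), named after their values were seen. For Cyp1b1 the median TCDD level was 54.8 CPM at 24 h, 261 CPM at 48 h and 683 CPM at 72 h, on a scale set over the 3 harvests. The lowest TCDD value was 2.22, 207 and 0.248 CPM in turn, the last in library 64, whose Cyp1a1 level was 31.8 CPM against 3819 CPM or more in the other 7. With TCDD, Ahrr was at 1.30 to 9.29 CPM at 24 h and 5.04 to 13.8 CPM at 48 h.

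Without library 21, Ugt1a9 had log2 fold changes of 0.62 at 24 h, 3.40 at 48 h and 5.804 at 72 h. It was the named gene with the smallest p for 48 against 24 h (difference 2.75 ± 0.51, adjusted p = 0.0995). Adh7 went from 2.13 to 4.97 and 5.28, and Cyp1a2 from 4.08 to 6.27 and 7.07, while Ugt1a7c was at 3.78, 3.82 and 3.66. Cyp1a1 was at 8.84, 11.09 and 7.88. The 72 h values include library 64, and without it Ugt1a9, Adh7, Cyp1a2, Ugt1a7c and Cyp1a1 were at 6.06, 5.50, 7.25, 3.90 and 8.06. None of the differences between times, which include library 64, passed the test.

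**Figure D5:**
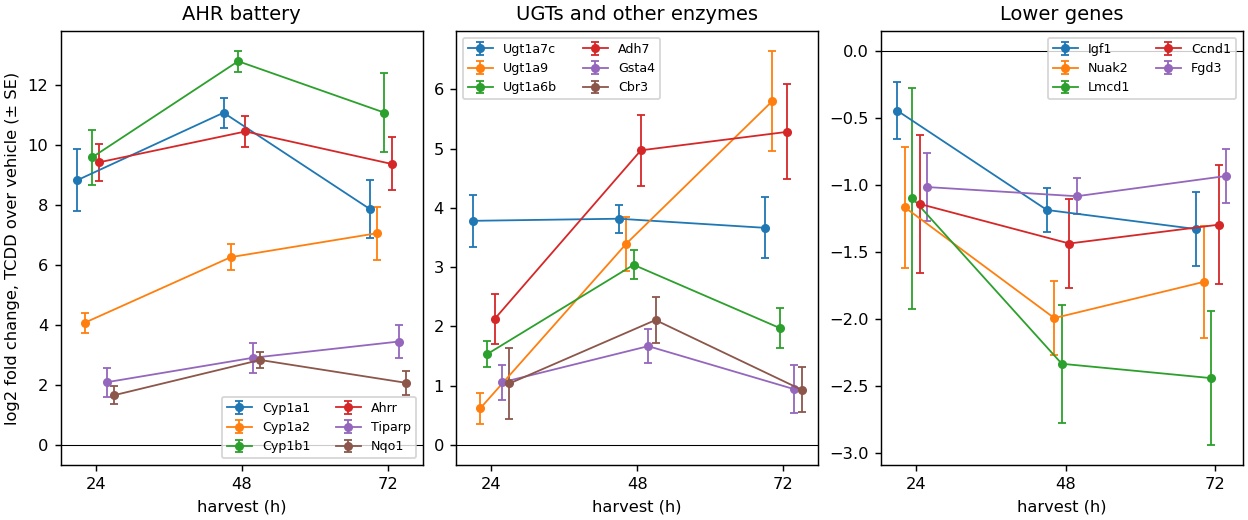
Log2 fold change of TCDD over vehicle (± SE) at 24, 48 (without library 21) and 72 h (with library 64) for the AHR battery, for other induced enzymes and for lower genes, with points shifted sideways for legibility. Ugt1a9 went from 0.62 to 5.804 between 24 and 72 h, while Ugt1a7c stayed between 3.66 and 3.82.

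Markers of other liver cells were read in the same libraries, since a hepatocyte preparation can hold them. None of the tested macrophage (7), endothelial (7) and cholangiocyte (6) markers was called in either fit. Nor did edgeR call any of the 8 hepatocyte markers in either fit. With 16 libraries 5 of these 8 had an unadjusted p under 0.05, 4 of them lower with TCDD, and DESeq2 called Ahsg and Serpina1c lower. Summed cholangiocyte marker levels were 242 to 1143 CPM (median 647) with vehicle, library 21 being the lowest, and 110 to 597 CPM (median 380) with TCDD, while Epcam and Cftr were at most at 1.51 and 0.268 CPM. Summed endothelial levels were 83.3 to 264 CPM with vehicle and 102.7 to 237 CPM with TCDD. Of 8 stellate or fibroblast markers the 1 called was Reln, and the list's sum was 12.7 to 61.5 CPM with vehicle and 29.7 to 111.3 CPM with TCDD. That sum includes Reln, which reached 8.48 CPM with vehicle and 101.6 CPM with TCDD. No other member was above 29.65 CPM (Acta2) in any library. The part of these cells in the results was not tested.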

How the data were processed

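Primary hepatocytes were profiled by RNA-Seq. The deposited files hold raw counts: per the file headers and layout, a gene's value is how many read pairs mapped uniquely to it, unstranded and by strand, without normalization. Per the submitters' processing notes and methods, the authors trimmed reads with Trimmomatic 0.39, checked them with FastQC 0.11.3 and aligned them to GRCm39 with STAR 2.7. The unstranded count was used, since strand 1 held 50.3% to 50.8% of stranded counts. Symbols from a reference table of gene IDs matched 52083 of the 55359 genes listed. The lines that name no gene held 18.4% to 26.5% of pairs and were left out. Labels and methods differ on the plate format used.

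Groups came from the labels. Counts of the 16 libraries were filtered with filterByExpr (count minimum 10, total minimum 15), scaled with TMM and tested with edgeR 4.0.16 (R 4.3.3, robust quasi-likelihood test, genotype label as covariate). Benjamini-Hochberg adjustment ran over all genes tested. SE was taken as the absolute log2 fold change divided by the square root of F. Leaving out library 21 also lets the filter keep more genes (14394 in place of 13981). Differences between labels and between times were interaction contrasts in 16 and 32 libraries. No pair of libraries within a group agreed within sampling noise (chi-square per degree of freedom at least 24.3). Intervals and limits from counts cover counting error only.

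Alternatives were RLE scaling, no filter, a mean of at least 1 CPM, DESeq2 1.42.0, no fold threshold, a posterior probability of at least 0.8 (limma 3.58.1, standing in for the authors' own calculation), the shares of pairs on no gene and of unmapped pairs as covariates, 1 surrogate variable (sva 3.50.0), 1 fit of all 144 libraries, no genotype covariate, each label alone, and leaving out each library. DESeq2 and the surrogate variable without library 21, the 72 h response without library 64, and list counts by DESeq2 and posterior probability were added after seeing the data. The tests were checked on simulated counts.

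Named genes were Pkm and the AHR battery, the 15 called genes with the largest change in each direction (10 without library 21), up to 6 called members per list, and called differences, leaving out predicted genes and, for the largest changes and differences, means under 1 CPM. Some results are not reported here. The genes, lists and comparisons were chosen with earlier results of these data known.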

Additional observations from a re-analysis of the deposited data

Results flagged for a closer look

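For each named gene the 4 libraries of each group were compared with each other, and a library was marked when its gap to the nearest of the other 3 took up more of the group's whole range than Dixon's 95% limit for 4 values allows. Of 284 such groups 40 were marked. Chance marks about 1 in 20 where values are normally distributed and genes are chosen without regard to them. Here CPM were compared without logs. Some genes were also named because they were called in the fit that left out a WT vehicle library, several of them only there. Such a choice favours marks of that library, so the 40 marks cannot be judged against the rate of 1 in 20. Genes that respond together are not independent, so these marks are not separate pieces of evidence.

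Library 21, labelled WT vehicle, was the highest of its group for Cyp1a1 (3557 CPM), Cyp1a2 (652.67 CPM), Nqo1 (115.69 CPM), Cyp2a5 (1774.6 CPM), Srxn1 (5099.7 CPM), Gsta2 (656.99 CPM), Gstm2 (238.09 CPM), Abcc4 (398.07 CPM), Cbr1 (240.54 CPM) and Cbr3 (217.88 CPM). It was likewise marked for Ugt1a6b (19.983 CPM), Ugt1a7c (22.431 CPM), Ugt1a9 (27.783 CPM), Adh7 (16.567 CPM), Acaa1b (27.897 CPM), Slc46a3 (52.833 CPM), Reln (8.4828 CPM), Kcnv2 (3.1882 CPM) and Tekt5 (8.0843 CPM). Its Ahrr level of 0.28466 CPM was marked because the other 3 libraries were at 0, and lies far below the TCDD libraries. Library 57, labelled WT with TCDD, was the highest of its group for Adh7 (270.05 CPM), Cyp2a5 (3401.7 CPM), Gstp2 (357.26 CPM), Kcnv2 (15.831 CPM) and Reln (101.59 CPM).

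The other marks were spread over libraries. Library 23 was marked for Pkm (1280.6 CPM) and Lmcd1 (8.7589 CPM), library 58 for Mir6236 (62.363 CPM), library 59 for Lmcd1 (2.674 CPM) and Tnfaip2 (135.5 CPM), and library 60, as the lowest, for Ugt1a5 (10.02 CPM). Among PkmΔDRE vehicle libraries, library 93 was marked for Cyp2a12 (127.08 CPM), Lipc (20.284 CPM) and Slc46a3 (9.7452 CPM), library 94 for Cpox (47.538 CPM) and, as the lowest, Cyp1a2 (11.576 CPM), and library 96 for Pmm1 (29.107 CPM). Library 130, PkmΔDRE with TCDD, was marked for Fgd3 (299.61 CPM), Lhfp (9.1574 CPM) and Ugdh (594.19 CPM). The response of Mir6236 differed between the labels by an interaction test, with a difference of log2 fold changes of -3.084.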

How the results depend on the processing

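The count of genes called with TCDD (91, with 74 higher and 17 lower) stayed within 1.5 times under RLE scaling, no filter, a mean of at least 1 CPM, no fold threshold and 1 fit of all libraries. The posterior probability gave 72 (9 lower), a covariate for pairs that fell on no gene 90 higher and 26 lower, and no genotype covariate 61 (9 lower). It was 249 (150 and 99) with DESeq2, 169 (69.82% of them higher and 51 lower) with 1 surrogate variable and 52 (45 and 7) with the unmapped share as covariate. WT alone gave 1, Cyp1b1 (1 higher and 0 lower), and PkmΔDRE alone 52 (43 and 9). Without library 21, DESeq2 gave 459 (257 and 202) and 1 surrogate variable 407 (257 and 150), both chosen after seeing the data. Leaving out 1 library gave 50 (library 95) to 201 (library 21), with 43 to 145 higher and 5 (P172_129) to 56 lower genes. Counts more than 1.5 times smaller came without library 22 (54), 95 (50), P172_129 (60), P172_131 (57) and P172_132 (60). The cause was not tested.

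The single difference between labels became 2 genes without a filter, 6 with DESeq2, 2 with 1 surrogate variable and 3 with 1 fit of all libraries. It became 0 with the posterior probability and 0 with the unmapped share as covariate. Without 1 library it was 1 to 2 (2 without library 22). Its difference kept its sign under each alternative. DESeq2 called 3 differences between 48 and 24 h and 2 between 48 and 72 h, and leaving out any of the 32 libraries gave 0 to 0 in both. At 72 h the count was 308 without library 64, more than 1.5 times that with it, chosen after seeing the data. No named gene's call changed direction. No paired analysis was possible because the labels carry no replicate numbers. Depth limits genes near 0, such as Ahrr, whose fitted fold change rests on few vehicle counts.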

Other observations

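Of 21 tested heme and iron genes, edgeR called none with 16 libraries (2 at an unadjusted p under 0.05), where DESeq2 called Cpox and Fth1, and 1 was higher without library 21 (background 1.01%), Cpox, which makes protoporphyrinogen from coproporphyrinogen. Cpox was at 16.5 to 47.5 CPM (median 31.05) with vehicle and 30.8 to 97.3 CPM (median 69.7) with TCDD, and its log2 fold change was 1.203 ± 0.28 (adjusted p = 0.0416, edgeR's quasi-likelihood test). Its call was gained in 9 of 30 alternatives. Fth1, ferritin heavy chain, was named after its values were seen. In the extracellular matrix list 1 of 30 tested genes was lower without library 21 (background 0.389%), Lama5, a chain of basement membrane laminin, at 64.05 to 142.2 CPM with vehicle and 51.7 to 110 CPM with TCDD (-0.70 ± 0.15, adjusted p = 0.0242).

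Among the genes called lower in the largest amounts without library 21 were Rad51b, a DNA repair factor (-2.21 ± 0.38, adjusted p = 0.00534), Slc4a9, an anion exchanger (-2.07 ± 0.44, adjusted p = 0.0242), Tnnt2, a troponin of heart muscle (-2.04 ± 0.47, adjusted p = 0.0393) and Efemp1, a matrix glycoprotein (-1.94 ± 0.46, adjusted p = 0.0483). None of the 4 was called with 16 libraries, where library 21 was at 0.512, 0.626, 0.399 and 3.70 CPM.

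Kcnv2, a modifier subunit of potassium channels, and Tekt5, a tektin of sperm flagella, were called higher only without library 21 (log2 fold changes 5.28 ± 0.82 and 4.95 ± 0.77). Kcnv2 was at 0 to 0.1765 CPM in the other 7 vehicle libraries, 3.19 CPM in library 21 and 0.648 to 15.8 CPM with TCDD. Tekt5 was at 0 to 0.256 CPM in the other 7 vehicle libraries, 8.08 CPM in library 21 and 0.246 to 9.80 CPM with TCDD.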
